A study of Canis lupus familiaris with 34 samples.

Results

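The 6 genes described here are TYROBP, LAPTM5, C1QC, LYZ, CD74 and CIITA, a set of genes that macrophages and other antigen-presenting cells express. They were chosen by name, with earlier results of these data known, and read by symbol from a table of 23988 genes, and all 6 were found and passed the filter on low values together with 15165 genes in all. The table holds 34 RNA sequencing libraries of the dog. Primary osteosarcoma, a malignant tumour of bone-forming cells, gave 30 libraries and a metastasis 1 (DOS.6M). The cultures are 2 lines grown from osteosarcoma, OSCA.78 and OSCA.8, and CNOB, labelled osteoblast. Every library is labelled as coming from a Golden Retriever, while the series text also names Rottweilers, so no breed comparison was made; the labels give no age, sex or treatment. Each line and the osteoblast culture is a single library, and the submitters describe the lines as derived from earlier primary tumours. DOS.46.2 repeats the number of DOS.46, so their mean on the log2 scale entered as 1 tumour, and n is 29 for primary tumours. Values are FPKM, which counts fragments relative to transcript length and library size; the unit was inferred from the processing notes, as the file names none, and differences are on the scale of log2(FPKM + 1).

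Macrophages enter tumours from the blood or live in the tissue, and they share a set of membrane and lysosomal proteins with other myeloid cells. TYROBP (DAP12) is an adaptor that carries activating signals from myeloid receptors such as TREM2, and LAPTM5 is a lysosomal membrane protein of blood-derived cells. C1QC is a chain of C1q, the complement protein that binds antibody and dying cells and is made mainly by macrophages, and LYZ is lysozyme, an enzyme that cuts bacterial cell walls. MHC class II molecules present peptides from taken-up proteins to helper T cells. CD74, the invariant chain, guides class II molecules to the compartment where they are loaded, and CIITA is the coactivator that switches on class II genes and CD74. CIITA can be induced by interferon gamma, which T cells and natural killer cells secrete.

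Summed FPKM ranged from 479053 to 1418308, the highest sum being that of the osteoblast culture, and 15328 to 17711 genes had a value above 0. Read counts were not used here, so depth in reads is unknown and no counting interval is given. The FPKM value of 1 fragment was estimated, relative to the median library, from ratios of values below 0.3 FPKM, taken against DOS.46, of which 48.2 to 63.5% in the other libraries lay within 0.02 (log2) of a ratio of small whole numbers. It lay between 0.760 and 2.05 and was highest in the tumour DOS.113, the shallowest library by this rough measure. None of 12 relations between a member and either this value or the share of a library taken by its 10 most abundant genes passed the threshold (smallest adjusted p = 0.637 by Pearson's r and 0.116 by Spearman's rho, permutation tests across 29 tumours, two-sided). By rho all 6 members fell with the value of 1 fragment, from -0.22 for LAPTM5 to -0.45 for CD74. The unadjusted permutation p for rho was 0.0154 for CD74, 0.0193 for LYZ and 0.0416 for TYROBP, and above 0.05 for the other members. In bulk tissue, fewer cells of a type and less RNA per cell cannot be told apart.

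All 6 genes were expressed in every primary tumour, and 5 of them were abundant. TYROBP ranged from 7.51 FPKM in DOS.100 to 308 in DOS.70, with a median of 88.6 and a mean of 112 ± 74.8 (SD, n = 29). LAPTM5 had the same lowest and highest tumours, at 6.62 and 213 FPKM, with a median of 76.8. These 2 genes of myeloid signalling and lysosomes thus had a similar level and nearly the same extremes.

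C1QC ranged from 18.9 FPKM in DOS.113 to 373 in DOS.115, with a median of 71.4. LYZ ranged from 8.27 FPKM in DOS.116 to 260 in DOS.85, with a median of 46.9. The highest tumour for complement was therefore a different one from the highest for lysozyme, and neither was the highest for TYROBP. The lowest C1QC value stood in the shallowest tumour library, at a level where TYROBP (75.4 FPKM) and LAPTM5 (92.2 FPKM) were near their medians.

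CD74 was the most abundant of the 6, from 38.8 FPKM in DOS.100 to 760 in DOS.70, with a median of 213 and a mean of 277 ± 192 (SD, n = 29). CIITA was the least abundant, from 0.340 FPKM in DOS.100 to 5.67 in DOS.105, with a median of 1.27. By median level per transcript length the order was CD74, TYROBP, LAPTM5, C1QC, LYZ and CIITA. The medians of TYROBP, LAPTM5, C1QC and LYZ lie inside the range of each other's tumours, and the whole range of CIITA lies below that of the other 5. The highest tumour exceeded the lowest by 41.0-fold for TYROBP, 32.1-fold for LAPTM5, 31.4-fold for LYZ, 19.7-fold for C1QC, 19.6-fold for CD74 and 16.7-fold for CIITA.

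**Figure D1:**
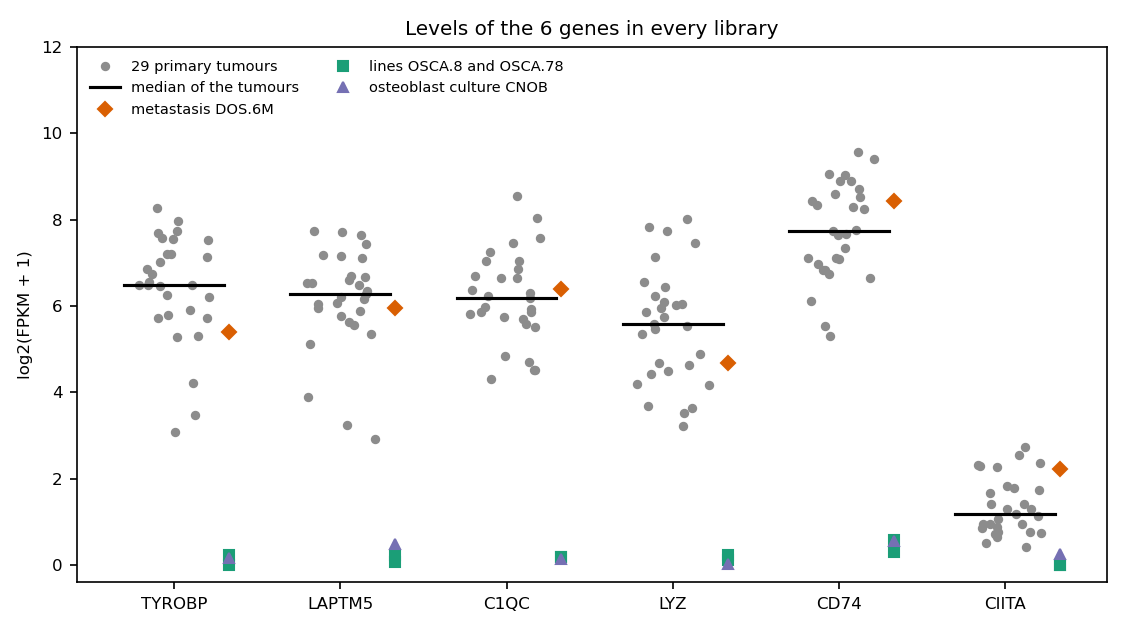
Levels of the 6 genes on the scale of log2(FPKM + 1), with 1 grey point per primary tumour, a black bar at the tumour median, and coloured symbols for the metastasis, the 2 lines and the osteoblast culture. For each gene the 3 cultures lie below all 29 tumours, and the metastasis lies among the tumours.

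The tumours did not take the same order for the 6 genes. DOS.100, DOS.32 and DOS.75 were among the 7 lowest tumours for all 6, so the low end was shared. No tumour was among the 7 highest for all 6, and DOS.70 came nearest with 5 (ranks 1, 1, 2, 1 and 7 for TYROBP, LAPTM5, C1QC, CD74 and CIITA, and 11 for LYZ). In 4 tumours (DOS.28, DOS.37, DOS.8 and DOS.111) some members were among the 7 highest and others among the 7 lowest. DOS.28 ranked 5 for TYROBP and 4 for LAPTM5, with 189 and 172 FPKM, and ranked 23 for CD74 and 27 for CIITA, with 114 and 0.565 FPKM. DOS.37 ranked 5 for LAPTM5 and 28 for C1QC, with 144 and 21.8 FPKM. DOS.8 ranked 7 for TYROBP and 25 for CIITA, with 185 and 0.670 FPKM. The opposite order was seen in DOS.105, which had the highest CIITA value and ranked 15 for TYROBP, and in DOS.115, which had the highest C1QC value and ranked 16 for TYROBP.

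**Figure D2:**
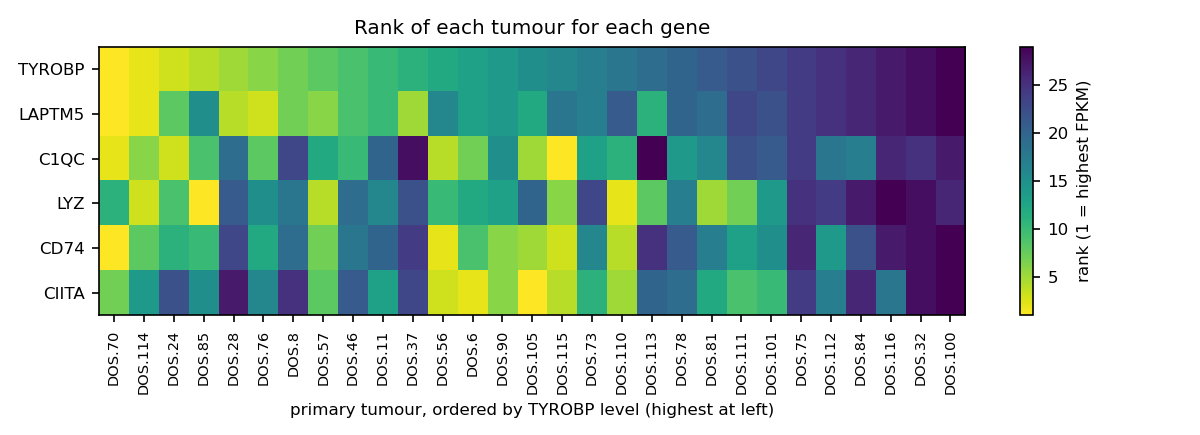
Rank of each of the 29 primary tumours (columns, ordered by TYROBP) for each of the 6 genes (rows), with 1 for the highest FPKM in yellow and 29 for the lowest in dark blue. LAPTM5 follows the order of TYROBP, CD74 and CIITA do so less, and DOS.100 and DOS.32 are dark in every row.

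Across the tumours the 6 genes formed closer and looser pairs. The 15 pairs were tested by permutation (100000 resamples, two-sided), adjusted over the pairs, and 13 passed by Pearson's r and 13 by Spearman's rho. The closest was TYROBP with LAPTM5 at r = 0.96 (95% interval 0.91 to 0.98, n = 29, rho = 0.93, permutation p = 1e-05 for both, the smallest these resamples can give, adjusted p = 5e-05). Next came C1QC with CD74 at r = 0.84 (95% interval 0.68 to 0.92, rho = 0.85) and CD74 with its activator CIITA at r = 0.82 (95% interval 0.64 to 0.91, rho = 0.84), both with a permutation p = 1e-05 for r and for rho. The 2 pairs that did not pass were TYROBP with CIITA (r = 0.28, 95% interval -0.10 to 0.58, rho = 0.20, permutation p = 0.147 and 0.295) and LAPTM5 with CIITA (r = 0.28, 95% interval -0.10 to 0.58, rho = 0.15, permutation p = 0.144 and 0.439). The intervals of these 2 pairs end below that of TYROBP with LAPTM5 and below the lower bound of CD74 with CIITA; the difference between correlations was not itself tested.

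The remaining pairs lay between. TYROBP gave r = 0.60 with C1QC, 0.59 with LYZ and 0.66 with CD74 (rho = 0.58, 0.51 and 0.51, permutation p for r = 4.9e-04, 6.8e-04 and 4e-05, p for rho = 0.0013, 0.00586 and 0.00472). LAPTM5 gave r = 0.50, 0.53 and 0.61 with the same 3 genes (rho = 0.41, 0.39 and 0.38, permutation p for r = 0.00553, 0.00245 and 3.6e-04, p for rho = 0.0288, 0.0369 and 0.0433). C1QC gave r = 0.62 with CIITA and 0.49 with LYZ (rho = 0.61 and 0.52, permutation p for r = 2.4e-04 and 0.00708, p for rho = 4.9e-04 and 0.00474). LYZ gave r = 0.69 with CD74 and 0.48 with CIITA (rho = 0.68 and 0.57, permutation p for r = 3e-05 and 0.00823, p for rho = 5e-05 and 0.00133). All 10 of these passed after adjustment over the 15 pairs, with an adjusted p of at most 0.0095 for r and 0.0499 for rho. By rho, 12 pairs passed after upper quartile scaling, 10 after quantile normalisation and 11 with DOS.46 and DOS.46.2 kept separate.

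Some of these calls depended on the tumours with the least of these genes. When the 2 tumours most distant from the first gene's median were left out, which for TYROBP and LAPTM5 are DOS.100 and DOS.32, 10 pairs passed by r and 8 by rho. TYROBP with LAPTM5 then stood at r = 0.92, TYROBP with C1QC at 0.48, with LYZ at 0.48 and with CD74 at 0.44, and TYROBP with CIITA at 0.03 (permutation p = 0.892). LAPTM5 no longer passed with C1QC (r = 0.33, permutation p = 0.0954, adjusted p = 0.1101), LYZ (r = 0.39, p = 0.0454, adjusted p = 0.0618) or CD74 (r = 0.35, p = 0.0742, adjusted p = 0.0927). These 3 calls thus depended on those tumours. Each r stayed positive, leaving out extreme tumours narrows the range, and the fall in r was not itself tested. LAPTM5 with CIITA stood at 0.02. For pairs led by C1QC the tumours left out were DOS.115 and DOS.113, for those led by LYZ DOS.85 and DOS.116, and for CD74 with CIITA again DOS.100 and DOS.32, so these values are not matched to the ones above. C1QC with CD74 gave 0.85, C1QC with CIITA 0.58, C1QC with LYZ 0.56, LYZ with CD74 0.67, LYZ with CIITA 0.53 and CD74 with CIITA 0.79.

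**Figure D3:**
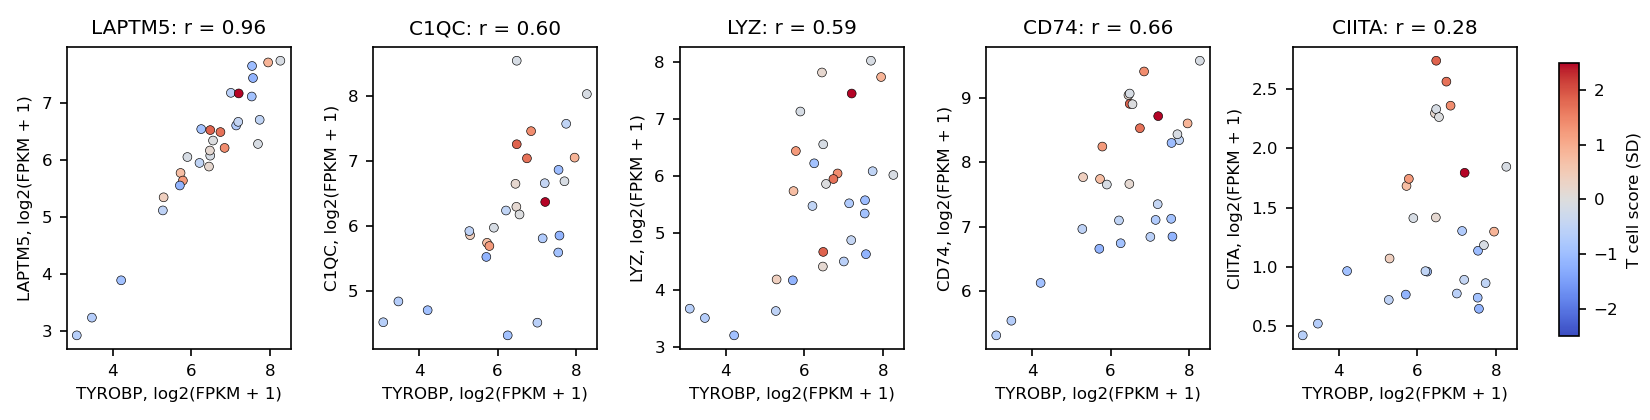
LAPTM5, C1QC, LYZ, CD74 and CIITA against TYROBP in 29 primary tumours, all on the scale of log2(FPKM + 1), with points coloured by the T cell score in SD (red high, blue low). LAPTM5 follows a narrow line (r = 0.96), while CIITA spreads widely at a given TYROBP level (r = 0.28), and the DOS.100 and DOS.32 points lie at the lower left of each panel.

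Set among all 15164 other genes past the filter, the members were each other's close neighbours only in part. As a description, 95% of genes correlated with TYROBP below r = 0.52, with LAPTM5 below 0.51, with LYZ below 0.54 and with CIITA below 0.41. LAPTM5 was the gene nearest to TYROBP and TYROBP the nearest to LAPTM5. CD74 was in place 215 for TYROBP, C1QC in place 405, LYZ in place 424 and CIITA in place 2982. Seen from C1QC, CD74 was in place 3, CIITA 138, TYROBP 168, LAPTM5 419 and LYZ 444. Seen from CIITA, CD74 was in place 5, C1QC 161, LYZ 465, LAPTM5 1961 and TYROBP 1976.

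The genes nearest to each member were of different kinds. After LAPTM5, the named genes nearest to TYROBP were LRRC25 (r = 0.92), the mast cell immunoglobulin-like receptor MILR1 (0.90), BIN2 (0.89) and FERMT3 (0.89), an integrin activator of blood cells. For LAPTM5 they were, after TYROBP, FERMT3 (0.91), the myeloid transcription factor SPI1 (PU.1, 0.90), NCKAP1L (0.90) and RAC2 (0.895), the last 2 being regulators of actin in blood cells. SPI1 ranged from 0.988 to 46.6 FPKM in tumours, and the lines had 0.0285 FPKM (OSCA.8) and 0 (OSCA.78).

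For C1QC the nearest were the other chains of C1q, C1QA (r = 0.99) and C1QB (0.98), then CD74 (0.84), the tetraspanin CD53 (0.81) and TIMD4 (0.80), a receptor for phosphatidylserine on macrophages. The 3 chains thus moved almost as 1 gene, with C1QA between 11.2 and 271 FPKM and C1QB between 7.33 and 321. For CD74 they were GIMAP6 (0.91), the lymphocyte adaptor SASH3 (0.91), the transcription factor IRF8 (0.90), CD53 (0.88) and the tetraspanin CD37 (0.86). For CIITA they were NLRC5 (0.85), which activates MHC class I genes as CIITA does class II genes, SASH3 (0.83), IRF8 (0.82), CD74 (0.82) and GBP6 (0.81), a guanylate-binding protein of a family induced by interferon. LYZ had another set, the fatty acid elongase ELOVL7 (0.86), the matrix protein SPARCL1 (0.82), PLAC8 (0.82), the leukocyte protein HCLS1 (0.82) and the ectonucleotidase ENTPD1 (0.82). Of the 20 genes nearest to CD74, 11 carried an Ensembl identifier alone and were given no name.

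To set the members against macrophage genes outside the set, every gene was fitted in limma on a macrophage score across the 29 tumours. The score is the mean z-score of CD68, CD163, CSF1R, AIF1, MSR1, MRC1, ITGAM, SPI1, VSIG4 and MARCO, scaled to an SD of 1, and a coefficient is the change in log2(FPKM + 1) per SD. Over all genes 3.09% rose with the score and 1.09% fell (adjusted p below 0.05), that is 469 and 165 genes, or 451 and 256 after quantile normalisation. The 10 score genes rose by construction. Of the 6 members, 5 rose and CIITA did not pass. TYROBP changed by 1.10 per SD (SE 0.12, limma adjusted p = 1.4e-07) and LAPTM5 by 0.96 (SE 0.13, limma adjusted p = 7.7e-06). C1QC changed by 0.73 (SE 0.14, limma adjusted p = 0.00166), CD74 by 0.78 (SE 0.15, limma adjusted p = 0.00111) and LYZ by 0.81 (SE 0.20, limma adjusted p = 0.0137). CIITA stood at 0.29 (SE 0.11, limma adjusted p = 0.152, unadjusted p = 0.0168). With a pseudocount of 0.1 FPKM, which compresses low values less, it stood at 0.49 (limma adjusted p = 0.0975). The macrophage score was lowest in DOS.100 and DOS.32, and without these 2 tumours CD74 and LYZ no longer passed (limma adjusted p = 0.111 and 0.178, at 0.62 and 0.75), nor did CIITA.

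Gene lists around the members were read from the same fit. Among genes of myeloid receptors and signalling, 9 of 14 rose and 0 fell, with a list median of 0.48 against 0.0023 over all genes. TREM2, a receptor that signals through TYROBP, changed by 0.84 (limma adjusted p = 0.0121) and the cytokine receptor chain CSF2RB by 0.69 (limma adjusted p = 9.9e-04), while the phospholipase PLCG2 was lowest at -0.07 (0.797). Without DOS.100 and DOS.32 the count was 2 of 14, and neither TREM2 nor CSF2RB passed (0.199 and 0.0537). Of 14 complement genes 4 rose, namely C1QA, C1QB, the properdin gene CFP and the receptor C3AR1, and 2 did so without DOS.100 and DOS.32. C1QA changed by 0.77 (limma adjusted p = 0.00206), C3 stood at 0.98 (0.0710) and CD55 at -0.25 (0.667).

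Of 29 symbols listed for class II presentation, 11 were found and passed the filter, and these are enzymes of antigen processing and transcription factors; the class II chains could not be looked up by symbol, apart from HLA-DPB1, which was below the filter. Of the 11, 2 rose with the macrophage score, the protease CTSS that trims CD74 (0.92, limma adjusted p = 5.5e-06) and the thiol reductase IFI30 (0.42, 0.0180, and 0.357 without DOS.100 and DOS.32), and the lowest was NFYA at -0.27 (0.119). The list median was 0.03. Of 8 genes of class I presentation, TAPBPL rose (0.50, limma adjusted p = 0.0265, and 0.308 without the same 2 tumours, where 1 other gene of the list was called), ERAP1 stood at 0.42 (0.0788) and CALR at -0.19 (0.260). Of 14 lysosomal genes, the protease CTSB rose (0.43, limma adjusted p = 0.00180, and 0.176 without the same tumours), the lipase LIPA stood at 0.45 (0.0526) and MCOLN1 at -0.15 (0.405). LAPTM5 thus passed where 13 of 14 other lysosomal genes did not.

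Markers of other cells were read from the same fit. Of 9 genes of the interferon gamma list 2 rose, IRF1 (0.62, limma adjusted p = 0.0186) and IRF8 (0.48, 0.00727), the latter also the 1 of 6 dendritic cell genes that rose, and both calls ended without DOS.100 and DOS.32 (0.223 and 0.178). Of 4 neutrophil genes 1 rose (3 at an unadjusted p below 0.05), with a list median of 0.54. It is the receptor CSF3R, at 0.38 (limma adjusted p = 0.0475), while S100A12 stood at 0.75 (0.185) and S100A9 at 0.70 (0.115). Of 5 osteoclast genes 1 rose (4 at an unadjusted p below 0.05), with a list median of 0.52. It is the proton pump subunit TCIRG1, at 0.52 (limma adjusted p = 0.0246), while the pump subunit ATP6V0D2 stood at 1.03 (0.0779). These 2 list medians are above that of the myeloid signalling genes, and neither list kept a call without DOS.100 and DOS.32. The part of neutrophils and osteoclasts in the members' coefficients was not tested. For T cell genes 0 of 8 passed by limma (2 at an unadjusted p below 0.05), for B and plasma cell genes 0 of 3 (0 unadjusted), for endothelial genes 0 of 5 (2 unadjusted), for osteoblast genes 0 of 5 (2 unadjusted, in opposite directions), and for mast cell and fibroblast genes 0 of 3 each (0 unadjusted).

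Class II genes were then read against T cell genes. Every gene was fitted on the macrophage score and a T cell score together, the latter the mean z-score of 8 T cell genes, among them CD3D, CD3G, CD2, CD5, ZAP70, LCK and GZMK. The 2 scores were weakly related (r = 0.19, rho = 0.21, permutation p = 0.316 and 0.278, n = 29). For the T cell score at a given macrophage score, 0.884% of all genes had a called positive coefficient and 0.0198% a called negative one. Of the 6 members, CD74 and CIITA rose with the T cell score and the other 4 did not pass. CD74 changed by 0.55 per SD (SE 0.12, limma adjusted p = 0.00691) and CIITA by 0.44 (SE 0.09, limma adjusted p = 0.00304). After quantile normalisation CD74 did not pass (limma adjusted p = 0.0729, at 0.47). LYZ stood at 0.43 (SE 0.19, limma adjusted p = 0.570, unadjusted p = 0.0288). C1QC stood at 0.29 (SE 0.14, limma adjusted p = 0.602, unadjusted p = 0.0441). CD74 and CIITA were not tested against LYZ or C1QC. TYROBP stood at -0.02 (SE 0.12, limma adjusted p = 0.973) and LAPTM5 at 0.02 (SE 0.13, 0.976).

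**Figure D4:**
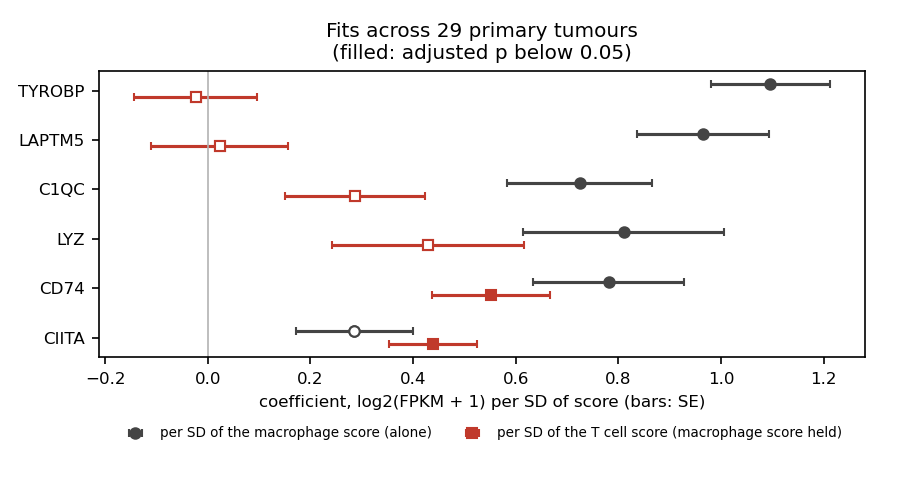
Coefficients of the 6 genes across 29 primary tumours in log2(FPKM + 1) per SD, for the macrophage score alone (grey circles) and for the T cell score with the macrophage score held (red squares), with bars of 1 SE; filled symbols passed an adjusted p of 0.05. TYROBP has the highest macrophage coefficient (1.10) and a T cell coefficient near 0, while CIITA passed for the T cell score (0.44) and not for the macrophage score (0.29). The difference between these CIITA coefficients was not tested.

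In the same fit 3 of 9 interferon gamma genes rose with the T cell score: IDO1 (1.04, limma adjusted p = 3.0e-08), GBP5 (0.71, 1.8e-06) and IRF8 (0.39, 0.0130), the last also 1 of 6 dendritic cell genes. The T cell genes summed to between 2.83 and 80.9 FPKM in tumours, with a median of 12.7. These 3 interferon genes were named after their values were seen. Of the other lists beside the T cell genes themselves, 0 of 14 complement genes (2 at an unadjusted p below 0.05), 0 of 14 myeloid signalling genes (3 unadjusted), 0 of 14 lysosomal genes (1 unadjusted) and 0 of 11 class II genes other than the members (2 unadjusted) passed by limma. These 11 are processing enzymes and transcription factors and hold no class II chain. Rows with an Ensembl identifier alone enter no list, so this count does not say whether the chains followed the T cell score. For class I genes 0 of 8 passed and 6 had a positive coefficient at an unadjusted p below 0.05.

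The difference between each other member and TYROBP was tested through ratios. Ranges of ratios are given for FPKM itself, while each log2 ratio is a difference of log2(FPKM + 1). The level of CD74 relative to TYROBP ranged from 0.602 in DOS.28 to 6.06 in DOS.110, with a median of 2.85. The log2 ratio rose with the T cell score at r = 0.50 (95% interval 0.16 to 0.73, n = 29, rho = 0.54, permutation p = 0.00615 and 0.00327, adjusted over 5 ratios 0.0308 and 0.0164), and stood at r = 0.53 without DOS.57 and DOS.105, the 2 tumours farthest from the median score (permutation p = 0.00432). After quantile normalisation it did not pass (r = 0.42, adjusted p = 0.1099 by permutation). The other 4 ratios did not pass. The ratio of LYZ gave r = 0.32 (95% interval -0.05 to 0.62, rho = 0.33, permutation p = 0.0881 and 0.0805), that of CIITA r = 0.23 (95% interval -0.15 to 0.55, rho = 0.26, permutation p = 0.229 and 0.174) and that of C1QC r = 0.22 (95% interval -0.16 to 0.54, rho = 0.28, permutation p = 0.262 and 0.139). LAPTM5 to TYROBP gave r = 0.06 (95% interval -0.32 to 0.41, rho = -0.08, permutation p = 0.775 and 0.664). This last ratio was also the steadiest, from 0.371 in DOS.85 to 1.22 in DOS.113. Its SD was 0.36 on the scale of log2(FPKM + 1), against 0.99 for CD74, 1.05 for C1QC, 1.18 for LYZ and 1.25 for CIITA. The added 1 FPKM compresses CIITA, whose own SD was 0.66 on that scale, against 1.26 for TYROBP. The spread of the CIITA ratio is thus close to that of TYROBP alone, and its test says little about CIITA.

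The members were also set beside the scores of all 16 gene lists, a reading chosen after the values had been seen. Of 96 relations 44 passed by r (permutation, adjusted over 96). The share of all genes that would pass with these lists was not counted, so the counts have no background. CIITA was closest to the interferon gamma list (r = 0.89, rho = 0.87) and the T cell list (r = 0.72, rho = 0.77), each with a permutation p = 1e-05 and an adjusted p = 8.7e-05, and stood at r = 0.43 with the macrophage list (rho = 0.41, adjusted p = 0.0450 and 0.0554, and r = 0.28 with adjusted p = 0.245 without DOS.100 and DOS.32, by permutation). CD74 was close to the interferon gamma list (r = 0.81, rho = 0.85), the dendritic cell list (r = 0.79, rho = 0.76), the class I list (r = 0.71, rho = 0.69), the macrophage list (r = 0.70, rho = 0.63), the complement list (r = 0.69, rho = 0.79) and the T cell list (r = 0.61, rho = 0.74), the highest permutation adjusted p by r being 0.00184. IRF8 is in both the interferon gamma and the dendritic cell list.

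TYROBP and LAPTM5 were closest to the lists of myeloid signalling (r = 0.87 and 0.86, rho = 0.78 and 0.77) and macrophages (r = 0.87 and 0.81, rho = 0.81 and 0.71), with a permutation adjusted p = 8.7e-05 each by r. They were also the only members to pass with the class II list (r = 0.61 and 0.60, rho = 0.64 and 0.63, permutation adjusted p = 0.00152 and 0.00277), which without the members holds processing enzymes and transcription factors; CD74 gave r = 0.20 and CIITA -0.09. They also followed the osteoclast list, genes of the bone-resorbing cells of the macrophage lineage (r = 0.60 and 0.63, rho = 0.62 and 0.65, permutation adjusted p = 0.00134 and 6.1e-04), for which C1QC, LYZ, CD74 and CIITA gave r = 0.14, 0.13, 0.06 and -0.20, none of which passed. Its 5 measured genes summed to between 17.8 and 319 FPKM in tumours, and the part of these cells in the TYROBP and LAPTM5 levels was not tested. C1QC was closest to the complement list (r = 0.77, rho = 0.82, permutation adjusted p = 8.7e-05), which holds C1QA and C1QB. It also passed with the macrophage (r = 0.69, rho = 0.66), interferon gamma (r = 0.68, rho = 0.67) and dendritic cell (r = 0.57, rho = 0.60) lists. The myeloid signalling (r = 0.56, rho = 0.48) and class I (r = 0.54, rho = 0.51) lists passed as well, the highest permutation adjusted p by r being 0.00726.

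LYZ passed with the most lists, 10 of 16. It was closest to the dendritic cell list (r = 0.83, rho = 0.85, permutation adjusted p = 8.7e-05), then the mast cell (r = 0.69, rho = 0.67), endothelial (r = 0.67, rho = 0.74), neutrophil (r = 0.63, rho = 0.56) and macrophage (r = 0.60, rho = 0.52) lists, the highest permutation adjusted p by r being 0.00255. Leaving out the 2 tumours most distant from each score's median, these 5 relations stood at r = 0.79, 0.70, 0.67, 0.46 and 0.50. LYZ also passed with the interferon gamma list (r = 0.54, rho = 0.64, permutation adjusted p = 0.00749 by r). The mast cell score rests on 3 genes of low level, whose sum had a tumour median of 0.497 FPKM (0.0607 to 88.3). None of these mast cell genes was above 0 in all tumours. Of the 4 neutrophil genes measured, S100A12 ranged from 1.40 to 568 FPKM and S100A9 from 0.0850 to 79.3, and the sum over the list lay between 3.56 and 663 FPKM. The part of these cells in the LYZ level was not tested.

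**Figure D5:**
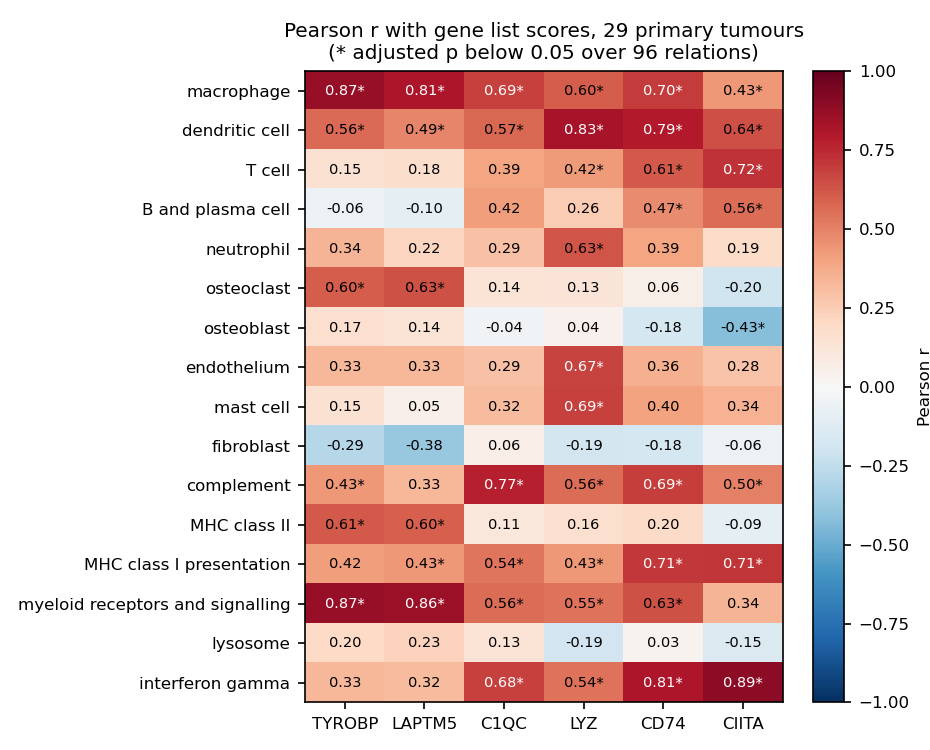
Pearson's r across 29 primary tumours between each of the 6 genes (columns) and the score of each gene list (rows), with a star where the adjusted p over 96 relations is below 0.05. TYROBP and LAPTM5 are highest for macrophage and myeloid signalling lists, CIITA for the interferon gamma list (0.89), and LYZ for the dendritic cell list (0.83).

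In cultured cells all 6 genes were near or at 0. The lines had 0.177 (OSCA.8) and 0 FPKM (OSCA.78) of TYROBP, 0.171 and 0.0539 of LAPTM5, 0.133 and 0.142 of C1QC, 0.0854 and 0.182 of LYZ, and 0.234 and 0.497 of CD74. CIITA was listed at 0 in both. For each gene both lines lay below all 29 tumours, as they did for 7.29% of all genes. Of the 6 members, 6 fell in the lines (limma adjusted p below 0.05), against 7.92% of all genes lower and 8.49% higher (1201 and 1288, or 1388 and 962 after upper quartile scaling). LYZ had a difference of -5.36 (log2, SE 0.92, limma adjusted p = 1.3e-04, and 0.0166 and 0.00759 with OSCA.8 or OSCA.78 as the only line). For CIITA no fold is given, since it is listed at 0, and its difference of -1.37 (limma adjusted p = 0.0405) did not pass with either line alone (0.364 and 0.166) or without the filter (0.0515). The lowest tumour still exceeded the higher line by 42.5-fold for TYROBP, 38.6-fold for LAPTM5, 133-fold for C1QC, 45.3-fold for LYZ and 78.2-fold for CD74.

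Each line was far below the tumour that carries its title number, although the labels do not say that line and tumour came from 1 dog. DOS.8 had 39.7 FPKM of LYZ and 185 of TYROBP, and OSCA.8 had 0.0854 and 0.177. DOS.78 had 43.6 FPKM of LYZ and 136 of CD74, and OSCA.78 had 0.182 and 0.497. The osteoblast culture stood with the lines, at 0.120 FPKM of TYROBP, 0.413 of LAPTM5, 0.102 of C1QC, 0.0219 of LYZ, 0.477 of CD74 and 0.195 of CIITA, with no replicate. Its osteoblast genes summed to 36.5 FPKM (24.7 from the transcription factor SP7), below the 108 to 8217 of the tumours.

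The genes around the members fell unevenly. Of 10 macrophage genes 8 fell, led by the lysosomal CD68 at -4.91 (limma adjusted p = 0.00491) and the growth factor receptor CSF1R at -4.75 (5.8e-05). Without OSCA.78 the count was 2 and without OSCA.8 it was 5, and CD68 did not pass in either case (0.111 and 0.0642). The list's sum was 1.21 FPKM for OSCA.8 and 2.22 for OSCA.78, and 22.4 to 788 over the tumours, and to 23.9 in the osteoblast culture, of which CD68 gave 23.3. Of 14 myeloid signalling genes 11 fell, with TREM2 at -3.42 (limma adjusted p = 0.0121), and the count was 2 without OSCA.78 and 5 without OSCA.8. TREM2 passed with neither line alone (0.231 and 0.0809).

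Complement fell in 6 of 14 genes, led by C1QA at -5.70 (limma adjusted p = 4.5e-06) and C1QB at -5.40 (5.6e-06), and in 2 genes without OSCA.78 and 4 without OSCA.8. Of the 11 class II genes 2 fell (1 with either line alone) and 1 rose. The protease CTSS changed by -5.45 (limma adjusted p = 6.7e-06), from a tumour mean of 76.05 ± 50.8 FPKM (SD, n = 29) to 0.426 and 0.323. RFXANK, a subunit of the factor that binds class II promoters together with CIITA, rose by 1.13 (limma adjusted p = 0.0220), the lines having 16.4 and 22.3 FPKM, and did not pass with either line alone (0.425 and 0.0604) or after scaling to the upper quartile (0.0516). The protease LGMN also fell (-0.96, limma adjusted p = 0.0416), named after its value was seen. IFI30 was at 98.7 and 259 FPKM in the lines, within or above the tumour range of 30.2 to 200. Of 14 lysosomal genes only LIPA fell (-2.34, limma adjusted p = 0.0302), with 0.0395 FPKM for OSCA.8 and 34.7 for OSCA.78, so the call came from 1 line. Of 9 interferon gamma genes 1 fell, JAK2 at -1.34 (limma adjusted p = 0.0121). With OSCA.8 as the only line it stood at -0.57 (limma adjusted p = 0.692).

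Among the lists for other cells and for osteoblasts, some fell in the lines and others had no gene called. Summed FPKM of the endothelial, osteoblast and T cell lists lay below every tumour for both lines. Sums of the neutrophil, dendritic cell and B and plasma cell lists lay within the tumour range for both. For the osteoclast, mast cell and fibroblast lists the lines differed in this. All 5 endothelial genes fell (3 without OSCA.78), led by PLVAP at -7.25 (limma adjusted p = 1.3e-07) and PECAM1 at -5.95 (2.6e-05). Osteoblast genes fell in 3 of 5 and fibroblast genes in 2 of 3 (0 without OSCA.78). For T cell genes 0 of 8 passed by limma (3 lower at an unadjusted p below 0.05, and 6 called lower with a pseudocount of 0.1 FPKM), for dendritic cell genes 0 of 6 (1 unadjusted), for osteoclast genes 0 of 5 (0 unadjusted), for neutrophil genes 0 of 4 (1 higher unadjusted), for class I genes 0 of 8 (0 unadjusted), and for B and plasma cell and mast cell genes 0 of 3 each (0 unadjusted).

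The metastasis had a mixed profile of the 6 genes, given here as ranks of a single library without a test. It stood at 41.1 FPKM of TYROBP, above 5 of 29 primary tumours, at 61.1 of LAPTM5 (above 10) and at 24.8 of LYZ (above 10). C1QC was at 83.0 FPKM (above 18), CD74 at 342 (above 19) and CIITA at 3.66 (above 23). Its T cell genes summed to 60.7 FPKM, above 27 of 29 tumours, and its macrophage genes to 68.6, above 4. The primary tumour with the same title number, DOS.6, had 106 FPKM of TYROBP, 88.9 of LAPTM5, 131 of C1QC, 61.0 of LYZ, 368 of CD74 and 4.91 of CIITA. The metastasis thus had 0.387 times the TYROBP and 0.406 times the LYZ of DOS.6, and 0.931 times its CD74; the labels do not say that both came from 1 dog.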

How the data were processed

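RNA sequencing (total RNA, TruSeq RNA v2, per the labels) covered 34 dog libraries. The authors deposited 1 table, whose values were read as FPKM since Cufflinks 2.2.1 is named, per the submitters' processing notes, along with FastQC 0.11.2, TopHat2 2.0.13 and the build canFam3. The sources used here give neither order, annotation, parameters nor what was masked. Of 14335 symbols 13096 were found in a RefSeq table of another build, used for names only; 9653 rows carry an Ensembl identifier alone and enter no list. Members and lists were chosen with earlier results of these data known. A gene was kept if 2 or more libraries reached 1 FPKM (15165 genes), and 1 FPKM was added before log2. The fits used limma 3.58.1 in R 4.3.3 (trend, robust, two-sided, Benjamini-Hochberg over all genes, threshold 0.05) on 2 lines against 29 tumours, and on scores across tumours; limma p-values rest on the spread between samples, which may be partly technical. Correlations used log2 values and 100000 permutations (Python 3.11.15, numpy 2.4.6, scipy 1.17.1), with 95% intervals by Fisher's transformation. Left-out tumours are the 2 farthest from the median. Besides the 6 members, named genes are the 5 with a symbol nearest to each member by r, the 2 highest and 1 lowest macrophage coefficients of each list, and the 2 largest called changes of each list in the lines; others in short counts were named after their values were seen, and some genes that these rules select are not reported here. Alternatives were another pseudocount, filter and scaling, separate DOS.46 libraries, limma without its options, left-out samples, 3 cultures and a block. The fits were tested on simulated data.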

Additional observations from a re-analysis of the deposited data

How the results depend on the processing

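Depth in reads is unknown, so the precision of low values such as CIITA cannot be given. The fall of TYROBP, LAPTM5, C1QC, LYZ and CD74 in the lines passed under all alternatives run. In the lines, 199 to 979 genes were called higher and 145 to 1019 lower with 1 line left (979 and 1019 without OSCA.8), a lone line being assumed to vary as the tumours do, and 2548 higher and 2032 lower with 3 cultures. CIITA, at -1.37 with either line alone and without the filter, did not pass there, and LIPA stood at -4.89 without OSCA.78 and turned to 0.21 without OSCA.8. The shared title numbers of lines and tumours (DOS.8 with OSCA.8, DOS.78 with OSCA.78) are not said to pair samples, and the difference between the lines correlated at 0.27 across genes with that between the tumours. With them as a replicate block, 1518 genes were called higher and 1449 lower, and no member changed its call (CIITA -1.19, limma adjusted p = 0.0479).

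In the macrophage score fit, 137 genes rose and 5 fell without the 2 farthest tumours (469 and 165 with them), where CD74 stood at 0.62 and LYZ at 0.75 without passing, CD3G at -0.0537, CD55 at 0.0186 and PLCG2 at 0.10. After quantile normalisation 256 genes fell. MPO, at -0.0064, turned to 0.0064 with upper quartile scaling and to 0.0011 without DOS.113. In the fit with the T cell score, 88 genes rose and 0 fell without the 2 farthest tumours (limma). CD74 stood at 0.47 without passing after quantile normalisation, and LAPTM5, near 0, at -0.0233 with a pseudocount of 0.1 FPKM and -0.0658 without the 2 farthest tumours. Pairs of LAPTM5 with C1QC (0.33), LYZ (0.39) and CD74 (0.35) did not pass without them. Of the ratios to TYROBP, 0 passed after quantile normalisation (CD74 at 0.42), and that of LAPTM5 stood at -0.10 without the 2 farthest tumours. The cause of these changes was not tested beyond fewer samples. Leaving out DOS.113, an alternative chosen after seeing the data, changed no member's call.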
